A study of Mus musculus with 10 samples.

Results

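Hepatokines are hormone-like proteins that the liver secretes, and 9 of their genes were followed by symbol through whole-liver RNA sequencing: Fgf21, Gdf15, Enho, Nrg4, Angptl4, Inhbb, Inhbe, Fetub and Ahsg. All 9 were among the 24537 gene symbols of the counts table, and 9 of 9 passed the filter on low counts. Nrg4, Enho and Inhbb were chosen by their CPM differences between the groups of these same livers, so their values are a description and carry no test. The other 6 genes were listed as known hepatokines and were tested over all genes.

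The livers came from male mice that had received an adeno-associated virus of serotype 8. For the Cd44 guides the vector is described as carrying the Cas9 of Staphylococcus aureus driven by TBG, a promoter active in hepatocytes, beside a guide RNA. Control mice had the genotype label Rosa26-KO, after a locus used as a neutral target, and were 9 months old (young, n = 3) or 25 months old (old, n = 3). The third group was 25 months old and carried a guide to Cd44, which encodes a cell surface receptor (n = 4). Guide 4 (Cd44-KO_g4) was used in knockout replicates 1 and 2, and guide 2 (Cd44-KO_g2) in knockout replicates 3 and 4. Mice were injected when 7 months old (young group) or 23 months old (old groups). All groups are thus labelled as edited at some locus, and liver cells other than hepatocytes were not targeted. The labels do not say that every library is a separate mouse, so p-values measure the spread between these samples.

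The libraries held 15821198 to 21710228 counts, at which 3 counts correspond to between 0.138 and 0.19 CPM (counts relative to library size, the usual unit of expression) before scaling. This floor covers counting error only. Levels below are CPM with TMM scaling, a correction for differences in RNA composition. Scaling by total counts alone moved the median log2 fold change of all genes by 0.31 between old and young controls and by 0.32 between knockout and young livers, and the young libraries had the lowest TMM factors, 0.824 to 0.897 against 0.966 to 1.12 in the old livers. Cd44 itself had 14.2 to 29.99 CPM in old control and 13.1 to 29.01 CPM in knockout livers, so whole-liver Cd44 RNA did not separate the groups and directions for the knockout rest on the labels. Old control replicate 3, whose library name lies outside the run of the others, stood apart for several of the genes, and values without it are given beside those genes. The hepatocyte markers summed to between 95589 and 117000 CPM by total counts in every liver, with none at 0.

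These proteins leave the liver or act on neighbouring cells, and the routes differ between them. Fibroblast growth factor 21 signals through FGF receptors with the co-receptor beta-Klotho and is induced by fasting and amino acid shortage. GDF15 is a stress hormone read by the receptor GFRAL in the hindbrain. Adropin, the product of Enho, and neuregulin 4 have been linked to glucose and lipid metabolism, and ANGPTL4 inhibits lipoprotein lipase. Inhbb and Inhbe encode the beta B and beta E chains of activins, members of the TGF-beta family. Fetuin-A (Ahsg) and fetuin-B (Fetub) are abundant plasma glycoproteins of the cystatin superfamily.

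Levels between genes were compared per kilobase of annotated exon. In young livers Ahsg was the most abundant, with 3599 ± 495 CPM per kilobase (SD, n = 3). Fetub followed with 365 ± 43.7 CPM per kilobase, and Angptl4 with 51.2 ± 11.4 CPM per kilobase (SD, n = 3 each). Inhbe had 14.5 ± 0.744, Gdf15 9.46 ± 0.253, Fgf21 5.83 ± 2.35, Nrg4 4.55 ± 1.36, Enho 3.6 ± 1.74 and Inhbb 0.744 ± 0.128 CPM per kilobase in young livers (SD, n = 3 each). The young ranges of Fgf21, Nrg4 and Enho overlapped each other, so these 3 neighbours were not separated, whereas the other neighbours did not overlap. In old control livers Enho stood at 13.5 ± 1.55 CPM per kilobase (SD, n = 3), within the range of Gdf15 (4.22 to 18.3) and next to Angptl4 (13.4 to 16.7). The gene model used by the authors is not stated, and the annotated exons of Inhbe and Nrg4 are long, so this order depends on the annotation.

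**Figure D1:**
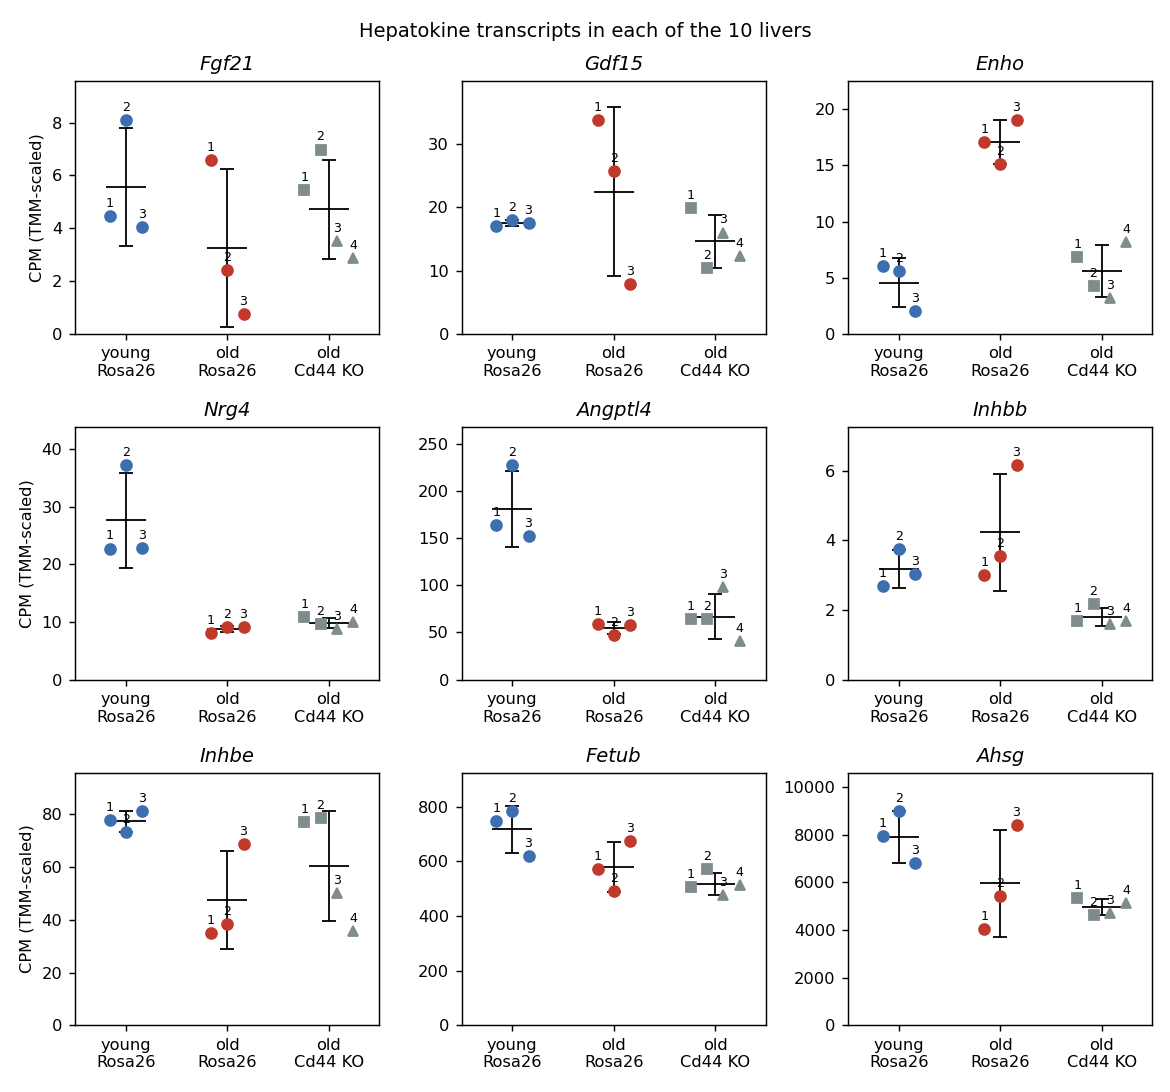
TMM-scaled CPM (vertical axes, from 0) of the 9 hepatokine genes in each liver, with the replicate number beside each point, circles for Rosa26 controls, squares for guide 4 and triangles for guide 2; the bars are group means with the SD. Enho lies at 15.1 to 19.1 CPM in old controls and at 8.17 CPM or less in every other liver, while Nrg4 and Angptl4 are high in the young livers alone.

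Old and young controls differed in 1 of the 6 tested genes, Angptl4, which fell, where 8.66% of all 13909 genes fell and 22.8% changed in either direction. None of the 6 rose, against 14.1% of all genes. Ranges of the 9 genes did not overlap for 1 that was higher (Enho) and 3 that were lower (Nrg4, Angptl4 and Inhbe). The shares of all genes were 19.7% and 18.0%. Enho and Nrg4 were picked for their changes, so their separation is no finding about hepatokines. With total-count scaling the ranges of Inhbe overlapped, and Inhbb was higher in every old control than in every young liver. In the knockout comparison 0 of 6 passed in edgeR's quasi-likelihood test, and 0% of all genes passed. At an unadjusted p under 0.05 there were 0 of 6, against 916 of all 13909 genes. DESeq2 called 0 of 6, against 0.0374% of its 18730 genes, and limma voom called 0 of 6. The ranges of 2 genes, Enho and Inhbb, were lower without overlap, against 3.26% of all genes, and both are among the genes picked for their changes. No range was higher without overlap, against 2.84% of all genes. Between knockout and young livers 1 of 6 fell, Angptl4, against 4.97% of all genes, and 0 of 6 rose, against 6.64%. DESeq2 called 3 there, all lower, with Fetub and Ahsg, where it called 7.02% of 18730 genes lower. Ranges there were lower without overlap for 5 of the 9 genes, against 18.8% of all genes. Of these 5, Nrg4 and Inhbb were picked for their changes, and with total-count scaling the ranges of Fetub and Inhbb overlapped, which left 3. Ranges there were higher without overlap for 0 genes, against 21.1%. The guide comparison called 0 of 6 genes in edgeR, against 0.0212% of all 14153 genes. At an unadjusted p under 0.05 it had 1 of 6, Inhbe, against 623 of the 14153 genes. DESeq2 called 0 of 6 there, against 0.368% of its 18730 genes, and limma voom called 0 of 6. Against old controls, edgeR called 0 of 6 genes for guide 2, where 0.0495% of all genes passed and all of these were higher (0.0495%), and 0 of 6 for guide 4. At an unadjusted p under 0.05 guide 2 had 0 of 6 genes, against 1007 of all 14153 genes. Guide 4 had 1 of 6, Inhbe, against 554 of all 14153 genes. The comparisons of age and of knockout with young livers share the young livers, and those of age and of the knockout share the old controls.

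**Figure D2:**
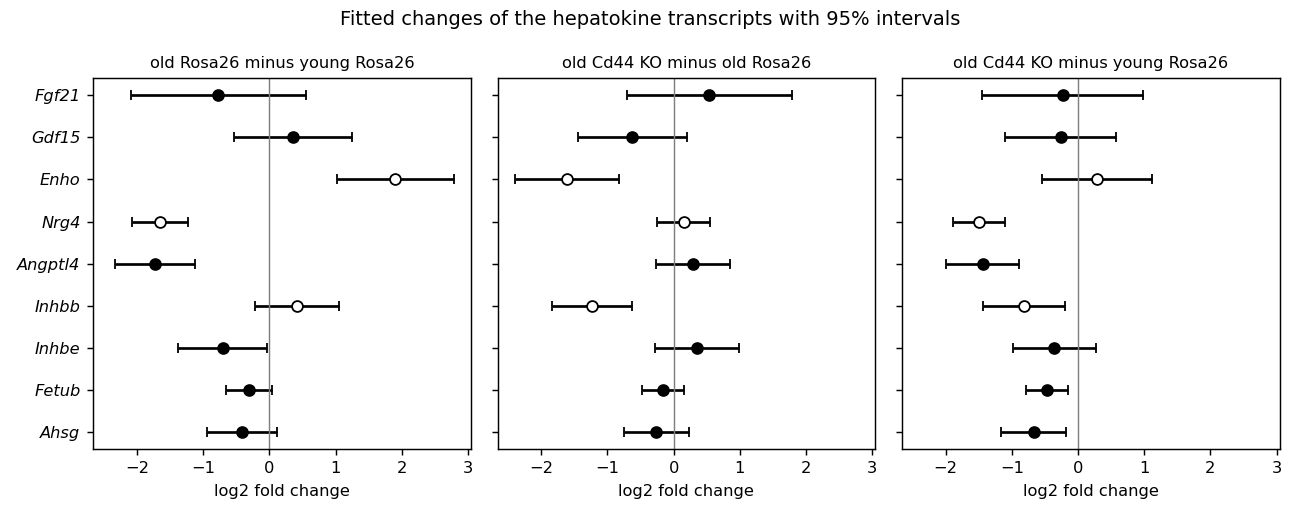
Log2 fold change (horizontal axes) with its 95% interval for each gene in the comparisons of old with young controls, knockout with old control and knockout with young livers; filled points were tested and open points were chosen for their changes. The interval of Angptl4 lies below 0 in the first and last panels and includes 0 in the knockout panel. Intervals of open points are a description and carry no test.

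Fgf21 (ENSMUSG00000030827.5, chromosome 7, 45613886 to 45615490 on the minus strand, build GRCm38) was at 4.47, 8.11 and 4.05 CPM in young replicates 1 to 3. In the old controls the values were 6.59, 2.42 and 0.763 CPM, and knockout replicates 1 to 4 had 5.46, 6.98, 3.53 and 2.86 CPM. The groups overlapped, and the old controls spanned almost the whole range of the series, with replicate 3 the lowest of all 10 livers. The log2 fold change with age was -0.77 (SE 0.60, 95% interval -2.09 to 0.55), and the quasi-likelihood test of edgeR gave an adjusted p of 0.37. With the knockout it was 0.54 (SE 0.57, 95% interval -0.70 to 1.78, adjusted p = 0.875 by edgeR), and it was 1.56 without old control replicate 1, 0.28 without knockout replicate 2 and 0.0755 without old control replicate 3. Without old control replicate 1 the age change was -1.79, with adjusted p = 0.0417 by edgeR, and without replicate 3 it was -0.31, with adjusted p = 0.637 by edgeR.

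Gdf15 (ENSMUSG00000038508.7, chromosome 8, 70629393 to 70632456, minus strand) was nearly constant in young livers, at 17.1, 18.0 and 17.5 CPM. Levels in old controls were 33.9, 25.8 and 7.82 CPM, and knockout replicates 1 to 4 had 19.8, 10.3, 16.01 and 12.3 CPM. Old control replicates 1 and 2 were above every young and knockout liver, and replicate 3 was the lowest liver of the series. The log2 fold change with age was 0.36 (SE 0.41, 95% interval -0.54 to 1.25), with adjusted p = 0.545 by edgeR. Without old control replicate 3 it was 0.76 with adjusted p = 0.0283 by edgeR, and without replicate 1 it was -0.06 with adjusted p = 0.924 by edgeR. The knockout change was -0.62 (SE 0.38, 95% interval -1.45 to 0.21, adjusted p = 0.794 by edgeR), and it was -0.20 without old control replicate 1 and -1.03 without old control replicate 3. Gfral, which encodes the GDF15 receptor, was below the count filter here.

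Fgf21, Gdf15 and Inhbe are known targets of the stress factors ATF4 and CHOP, which bind composite elements, and the bases before the starts of these genes were searched. The letters searched for these elements were TGATGNAA on both strands within 250 bases before the start, which 3.45% of 32851 RefSeq promoters (GRCm38.p6) hold. Of the 9 genes, 7 have an entry in that table. Fgf21 and Inhbe each held 1 match, at positions -139 and -181 from the RefSeq start, and both read on the opposite strand, while the 2 Gdf15 windows held none of these letters. The Fgf21 window is printed to show where the element and the start lie, at chr7:45615491-45615740 on the minus strand. The 30 bases around the Inhbe match, at chr10:127352011-127352040 on the minus strand, are printed to compare with it. Capitals mark the match, which has the same 8 letters in both.
Fgf21: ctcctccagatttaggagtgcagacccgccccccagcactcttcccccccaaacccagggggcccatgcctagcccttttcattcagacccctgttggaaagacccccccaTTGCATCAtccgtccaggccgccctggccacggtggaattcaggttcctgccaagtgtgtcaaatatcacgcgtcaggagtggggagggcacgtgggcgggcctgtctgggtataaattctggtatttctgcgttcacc
Inhbe: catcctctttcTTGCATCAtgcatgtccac
The match describes these letters and shows no binding. In the annotation used for positions, the Inhbe stretch lies inside an exon that starts further upstream.

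Around these stress hormones, 18 genes of the ATF4 and CHOP branch were tested. With age 3 fell and 0 rose, against 8.66% and 14.1% of all genes. The median log2 fold change was -0.11 against 0.04 for all genes. Ddit4, an inhibitor of mTORC1, fell by 1.22 (SE 0.28, adjusted p = 0.0147 by edgeR), the transsulfuration enzyme gene Cth fell by 0.75 (SE 0.18, adjusted p = 0.0192 by edgeR), and the transcription factor gene Cebpb fell by 0.77 (SE 0.20, adjusted p = 0.0235 by edgeR) on the log2 scale. Scaling by total counts left 1 of these calls, Ddit4. The number that fell was 0 with only the groups compared, 1, 0 and 2 without young replicates 1, 2 and 3, and 2 without old control replicate 2. The transcripts of Atf4 and Ddit3, the 2 factors themselves, had log2 fold changes with age of -0.12 and -0.41, neither past the threshold. Asns, which encodes asparagine synthetase, stood at 4.37 ± 2.68 CPM in the young group and 2.34 ± 1.22 CPM in old controls (SD, n = 3 each), against 0.542 ± 0.39 CPM with the knockout (SD, n = 4). It was called between knockout and young livers, with a log2 fold change of -3.01 (SE 0.57, adjusted p = 0.0165 by edgeR), and not between knockout and old control livers (-2.10, SE 0.58, adjusted p = 0.744 by edgeR).

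Enho (ENSMUSG00000028445.7, chromosome 4, 41638144 to 41640324, minus strand), which encodes adropin, had 6.06, 5.61 and 2.03 CPM in young replicates 1 to 3. The 3 old controls had 17.1, 15.1 and 19.1 CPM. Knockout livers had 6.86 and 4.23 CPM under guide 4, against 3.20 and 8.17 CPM under guide 2. The 3 old controls were above the other 7 livers with no overlap, while young and knockout livers shared 1 range. The log2 fold change was 1.90 with age (SE 0.40), -1.61 with the knockout (SE 0.36) and 0.29 between knockout and young livers (SE 0.38), the last of which was -0.0677 without young replicate 3. Against the same 3 old controls the value was -1.60 for guide 2 (SE 0.48) and -1.63 for guide 4 (SE 0.48). Over fits that each omit 1 liver, the knockout value lay between -1.85 and -1.42 and the age value between 1.55 and 2.16. No test is attached to Enho, since it was picked for its changes in these livers. The values per guide and per omitted liver come from these same livers. Of 13909 genes, 305 (2.19%) were likewise higher in every old control than in every young liver and lower in every knockout than in every old control liver.

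An exon of Dnaic1, a dynein chain gene on the plus strand, overlaps an Enho exon by 15 bases. Dnaic1 had 3, 5 and 1 counts in young, 14, 13 and 13 counts in old control and 3, 2, 4 and 2 counts in knockout replicates. The use of strand in the counting is not stated, so reads of the 2 genes at this junction cannot be told apart, and Dnaic1 was highest in the 3 old controls, as Enho was. Dnaic1 was named after its values were seen. Enho itself had 85 to 99 counts in young replicates 1 and 2, 32 in young replicate 3, 332 to 400 in old controls and 68 to 140 in knockout livers.

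Enho is known to be under control of ROR and REV-ERB factors of the circadian clock, and 16 genes of that loop were tested. With age 2 rose and 4 fell, against 14.1% and 8.66% of all genes. The median log2 fold change was -0.10. The clock output factor gene Dbp rose from 13.6 ± 11.04 to 61.5 ± 31.1 CPM (SD, n = 3 each), with a log2 change of 2.18 (SE 0.59, adjusted p = 0.0263 by edgeR). Per3 rose by a log2 fold change of 2.09 (SE 0.46, adjusted p = 0.0133 by edgeR). Nfil3, a repressor, fell by 1.25 (SE 0.24, adjusted p = 0.00936 by edgeR), Arntl by 0.95 (SE 0.27, adjusted p = 0.0318 by edgeR) and Cry1 by 0.89 (SE 0.19, adjusted p = 0.0129 by edgeR) on the log2 scale, and the sixth gene called was Clock. Of the regulators of Enho, Rora had a log2 fold change of -0.36 and Nr1d1 of 0.50 with age, neither past the threshold. With total-count scaling 6 of the 16 genes rose and 1 fell, and with 1 liver left out 1 to 6 rose and 1 to 4 fell, the highest counts without old control replicate 3 and the lowest without young replicate 2. The hour of tissue collection is not given in the labels.

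Nrg4 (ENSMUSG00000032311.17, chromosome 9, 55220222 to 55326844, minus strand), which encodes neuregulin 4, a ligand of ERBB receptors, had 22.8, 37.2 and 22.9 CPM in young livers. In the old controls the values were 8.16, 9.07 and 9.21 CPM, and knockout replicates 1 to 4 had 10.8, 9.64, 8.81 and 9.92 CPM. The young livers were above all 7 old livers, and old control and knockout livers shared 1 narrow range. Its log2 fold change was -1.65 with age (SE 0.19), 0.15 with the knockout (SE 0.18) and -1.496 between knockout and young livers (SE 0.18). The coefficient of variation was 6.46% in old controls and 8.42% in knockout livers against 29.99% in young livers, where replicate 2 was highest. Without young replicate 2 the age value was -1.38. An exon of Fbxo22 on the other strand overlaps Nrg4 by 202 bases, and Fbxo22 had a log2 fold change with age of -0.04 (adjusted p = 0.825 by edgeR).

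The bases before the RefSeq start of Nrg4, at chr9:55283626-55283875 on the minus strand, are printed because Nrg4 separated all young from all old livers. Nrg4 was picked for its changes in these livers. Of all genes, 18.0% were lower without overlap in old control than in young livers, and 18.8% in knockout than in young livers. Capitals mark AGGTCA, the hexamer read by many nuclear receptors, here on the opposite strand at positions -90 and -26. The annotation used for positions lets Nrg4 start further upstream as well, and 14.0% of RefSeq promoters hold AGGTCA on either strand within 250 bases.
Nrg4: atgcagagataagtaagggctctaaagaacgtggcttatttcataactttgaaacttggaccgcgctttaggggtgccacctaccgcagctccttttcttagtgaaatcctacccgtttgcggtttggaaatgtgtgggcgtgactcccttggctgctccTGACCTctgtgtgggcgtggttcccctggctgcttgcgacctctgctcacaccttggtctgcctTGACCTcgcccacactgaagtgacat
Among the other windows searched, 1 of the 2 Gdf15 windows held 1 AGGTCA and those of Fgf21, Inhbb, Inhbe, Ahsg and Fetub held none of these letters.

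Of 9 other ERBB ligand genes 6 were tested, and 1 rose with age, against 14.1% of all genes. Hbegf, which encodes heparin-binding EGF-like growth factor, rose from 0.566 ± 0.255 to 1.504 ± 0.103 CPM (SD, n = 3 each), with a log2 change of 1.39 (SE 0.38, adjusted p = 0.0265 by edgeR). The number of these ligands that rose was also 1 without young replicate 1 or old control replicate 3, and it was 0 when another control liver was left out. Of the receptors of neuregulin 4, Erbb3 had a log2 fold change of 0.41 and Erbb4 of 0.29 with age, neither past the threshold. Erbb4 had 1.01 to 1.78 CPM in young and 1.72 to 1.96 CPM in old control livers.

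Angptl4 (ENSMUSG00000002289.16, chromosome 17, 33773750 to 33781830, minus strand) fell with age, the 1 gene of the 6 tested to pass. Young replicates 1 to 3 had 164, 227 and 152.5 CPM. Levels in old controls were 59.2, 47.3 and 57.8 CPM, and knockout replicates 1 to 4 had 64.2, 63.96, 98.6 and 40.6 CPM. No old liver reached the lowest young liver. Its log2 fold change with age was -1.73 (SE 0.28, 95% interval -2.33 to -1.12), and the quasi-likelihood test of edgeR gave an adjusted p of 0.00772. It lay between -1.84 and -1.42 over 13 alternatives, with adjusted p-values from 3.08e-07 to 0.0413. Between knockout and young livers it was -1.44 (SE 0.25, adjusted p = 0.013 by edgeR), and without young replicate 2 this value was -1.25 with adjusted p = 0.0746 by edgeR. The knockout change was 0.29 (SE 0.25, 95% interval -0.27 to 0.84, adjusted p = 0.846 by edgeR). The guide 2 livers held both the highest and the lowest Angptl4 level of the old livers.

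ANGPTL4 acts on lipoprotein lipase, and 10 genes of that system were tested. With age 2 of them rose and 2 fell, against 14.1% and 8.66% of all genes. Lpl, the lipase itself, rose from 16.1 ± 2.39 to 61.7 ± 41.96 CPM (SD, n = 3 each), with a log2 change of 1.94 (SE 0.41, adjusted p = 0.0123 by edgeR). The 3 old controls had 41.4, 109.95 and 33.8 CPM of Lpl against 14.2 to 18.8 CPM in young livers, and replicate 2 also had the highest macrophage markers. Gpihbp1, which anchors the lipase on capillary endothelium, rose from 8.89 ± 1.27 to 20.3 ± 4.05 CPM (SD, n = 3 each), with a log2 change of 1.19 (SE 0.19, adjusted p = 0.00772 by edgeR). Lmf1, the maturation factor of the lipase, fell by 0.40 (SE 0.10, adjusted p = 0.0196 by edgeR) and Apoa5 fell by 0.59 (SE 0.19, adjusted p = 0.0444 by edgeR) on the log2 scale. With total-count scaling Lmf1 and Apoa5 did not pass (-0.09 and -0.29), while Lpl and Gpihbp1 did. The number that fell was 0 without young replicate 2, young replicate 3 or old control replicate 2, 1 without young or old control replicate 1 and 4 without old control replicate 3, and the number that rose was 1 without young replicate 2. Angptl8, a relative that also acts on the lipase, had a log2 fold change with age of -0.03, not past the threshold.

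Angptl4 is also a known target of PPAR alpha, and 18 genes of that pathway were tested. With age 6 fell and 1 rose, against 8.66% and 14.1% of all genes, and 11 did not pass. The median log2 fold change was -0.465 against 0.04 for all genes. The lipid droplet protein gene Plin2 fell by 1.29 (SE 0.28, adjusted p = 0.0129 by edgeR) and the thioesterase gene Acot1 fell by 1.51 (SE 0.38, adjusted p = 0.0203 by edgeR) on the log2 scale. Cpt2, which encodes an enzyme of mitochondrial fatty acid oxidation, fell by 0.77 (SE 0.18, adjusted p = 0.0157 by edgeR). Ppargc1a, a coactivator, rose by a log2 fold change of 0.95 (SE 0.26, adjusted p = 0.0269 by edgeR). Ppara itself had a log2 fold change of -0.07 (SE 0.20, adjusted p = 0.831 by edgeR). The number that fell was 3 with total-count scaling and 3 with only the groups compared. It was 3, 0 and 2 without young replicates 1, 2 and 3, and 4, 0 and 10 without old control replicates 1, 2 and 3.

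Inhbb (ENSMUSG00000037035.5, chromosome 1, 119415465 to 119422248, minus strand) was the least abundant of the 9 genes per kilobase of exon. Young replicates 1 to 3 had 2.69, 3.76 and 3.04 CPM. In the old controls the values were 2.998, 3.56 and 6.15 CPM, and knockout replicates 1 to 4 had 1.69, 2.18, 1.60 and 1.69 CPM. Every knockout liver was below every control liver, young or old. Its log2 fold change was -1.24 with the knockout (SE 0.27), 0.42 with age (SE 0.29) and -0.81 between knockout and young livers (SE 0.28). Against old controls guide 2 gave -1.36 (SE 0.36) and guide 4 gave -1.12 (SE 0.35). Without old control replicate 3 the knockout value was -0.87 and the age value 0.05. Counts of Inhbb ran from 29 to 129 per liver. With total-count scaling the knockout and young ranges overlapped, while every old control was above every young liver and the age value was 0.70. No test is attached to Inhbb, since it was picked for its changes in these livers.

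Inhbe (ENSMUSG00000047492.5, chromosome 10, 127348857 to 127354411, minus strand) had 77.7, 73.1 and 81.0 CPM in young livers. Levels in old controls were 35.1, 38.4 and 68.7 CPM, and all were below the young range. Knockout livers had 76.9 and 78.6 CPM under guide 4, against 50.1 and 35.8 CPM under guide 2. The guide 4 livers thus lay in the young range and the guide 2 livers below it. Its log2 fold change with age was -0.71 (SE 0.31, 95% interval -1.38 to -0.03), with adjusted p = 0.116 by edgeR. Without old control replicate 3 it was -1.08 with adjusted p = 0.0161 by edgeR, and with total-count scaling it was -0.43 and the old and young ranges overlapped. Guide 4 minus guide 2 gave 0.85 (SE 0.29, 95% interval 0.21 to 1.505), with an unadjusted p of 0.0149 and adjusted p = 0.871 by edgeR. An unadjusted p under 0.05 was found for 623 of 14153 genes there. Against old controls guide 4 gave 0.71 (SE 0.26, adjusted p = 0.981 by edgeR) and guide 2 gave -0.14 (SE 0.27, adjusted p = 0.955 by edgeR). Both guides together gave 0.35 (SE 0.29, adjusted p = 0.833 by edgeR). This value ran from 0.17 without old control replicate 1 to 0.72 without old control replicate 3.

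Of 14 activin and TGF-beta antagonists and mediators 2 rose with age and 0 fell, against 14.1% and 8.66% of all genes. The median log2 fold change was 0.38. Tgfbr3, the co-receptor betaglycan, rose by a log2 fold change of 0.90 (SE 0.28, adjusted p = 0.0412 by edgeR), and the follistatin-like gene Fstl1 rose by a log2 fold change of 0.999 (SE 0.32, adjusted p = 0.0447 by edgeR). Fst, the activin antagonist follistatin, had a log2 fold change of 0.53, not past the threshold. Of the other activin chains, Inhbc had a log2 fold change with age of -0.47 (SE 0.16, adjusted p = 0.0539 by edgeR) and Inhba of -0.39 (SE 0.39, adjusted p = 0.48 by edgeR). The count of 2 was 0 with guides as separate coefficients, with only the groups compared and without young replicate 1, young replicate 2, old control replicate 1 or old control replicate 2, and 4 without old control replicate 3. Among 13 receptor and co-receptor genes tested, 3 rose and 1 fell with age, against 14.1% and 8.66% of all genes. Fgfr2, Fgfr1 and the orphan receptor gene Gpr19 rose by log2 fold changes of 0.62, 0.73 and 0.60, and the activin receptor gene Acvr2a fell by 0.35 on the log2 scale, with -0.05 under total-count scaling. No receptor gene passed without young replicate 2, young replicate 3 or old control replicate 2, and 1 rose without young replicate 1. Klb, which encodes beta-Klotho, had a log2 fold change of -0.03 (SE 0.24).

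Fetub (ENSMUSG00000022871.13, chromosome 16, 22918334 to 22939778, plus strand) had 747, 783 and 620 CPM in young livers. The 3 old controls had 572, 490.4 and 673 CPM, and knockout replicates 1 to 4 had 507, 572, 475 and 512 CPM. The young and old control ranges overlapped at replicate 3 of each, and the knockout livers were below the young range. Its log2 fold change was -0.31 with age (SE 0.16, adjusted p = 0.171 by edgeR), -0.16 with the knockout (SE 0.15, 95% interval -0.49 to 0.16, adjusted p = 0.847 by edgeR) and -0.47 between knockout and young livers (SE 0.15, adjusted p = 0.0568 by edgeR). With total-count scaling the age value was -0.01 and the value between knockout and young livers was -0.15, so the size of the difference rested on the scaling. Without old control replicate 3 the age value was -0.44, with adjusted p = 0.0416 by edgeR.

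Ahsg (ENSMUSG00000022868.6, chromosome 16, 22891277 to 22899449, plus strand) lies 18884 bases before Fetub. It had 7933, 8979.8 and 6806 CPM in young livers. The old controls, in the order of their replicate numbers, had 4024, 5431 and 8399 CPM, and the knockout livers 5359, 4647, 4702 and 5138 CPM. Old control replicate 3 lay inside the young range and the other old controls below it. Its log2 fold change was -0.41 with age (SE 0.24, adjusted p = 0.233 by edgeR), -0.26 with the knockout (SE 0.22, 95% interval -0.75 to 0.23, adjusted p = 0.838 by edgeR) and -0.67 between knockout and young livers (SE 0.22, adjusted p = 0.0691 by edgeR). Without old control replicate 3 the age value was -0.75, with adjusted p = 0.0096 by edgeR, and the knockout value was 0.07. With total-count scaling the age value was -0.12. An exon of the antisense gene Gm30505 overlaps Ahsg by 62 bases, and Gm30505 had 84.05 to 483 CPM in the old controls, lowest in replicate 1 and highest in replicate 3 as for Ahsg.

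Of 5 further cystatin superfamily genes tested, 0 passed with age, against 22.8% of all genes. The neighbours Hrg and Kng1, which encode histidine-rich glycoprotein and kininogen, had log2 fold changes of -0.24 and -0.08. Hrg reached 1237 CPM in old control replicate 3 against 571 and 744 CPM in replicates 1 and 2.

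**Figure D3:**
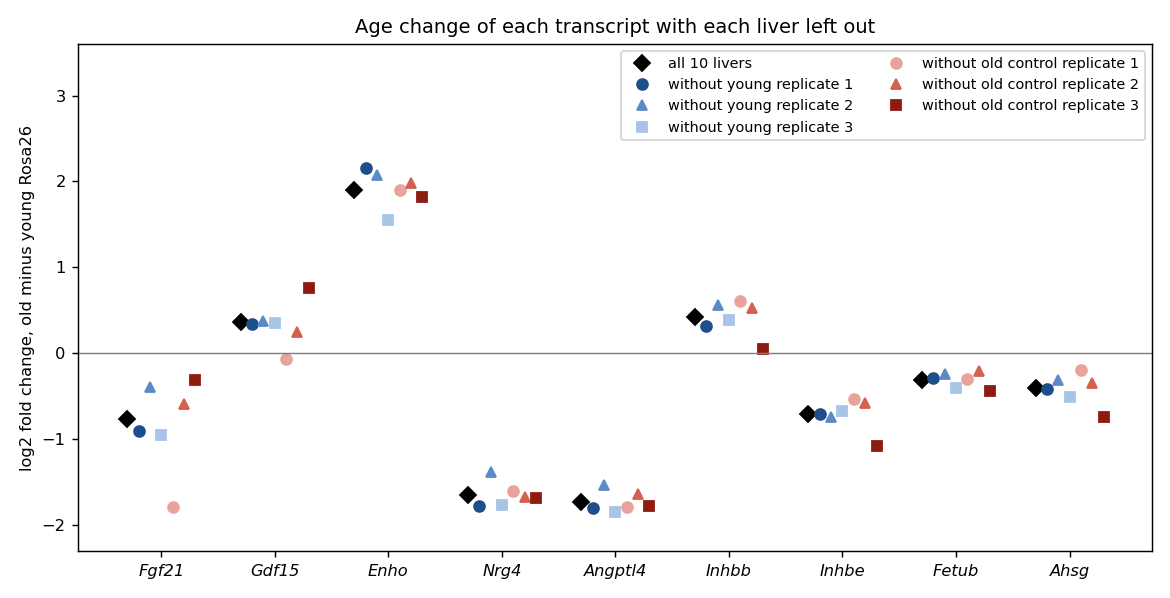
Log2 fold change of old against young controls (vertical axis) for each gene with all 10 livers (diamonds) and with each control liver left out (blue for young, red for old). Gdf15, which runs from -0.06 to 0.76, is the 1 gene of the 9 whose sign changes in these fits, and Fgf21 runs from -1.79 to -0.31.

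Of 24 other hormone-like liver proteins 2 rose and 2 fell with age, against 14.1% and 8.66% of all genes. The median log2 fold change was -0.12. Gdf2, which encodes BMP9, rose from 9.42 ± 1.82 to 21.5 ± 2.98 CPM (SD, n = 3 each), with a log2 change of 1.19 (SE 0.17, adjusted p = 0.00667 by edgeR). Tsku, which encodes tsukushi, fell from 311 ± 83.9 to 98.5 ± 21.4 CPM (SD, n = 3 each), with a log2 change of -1.66 (SE 0.32, adjusted p = 0.00981 by edgeR). The growth factor gene Hgf rose by a log2 fold change of 1.04 (SE 0.31, adjusted p = 0.0363 by edgeR), and Apoa4 fell by 0.98 (SE 0.30, adjusted p = 0.0375 by edgeR) on the log2 scale. Igf1 had a log2 fold change of -0.09 (SE 0.13). With 1 liver left out 1 to 4 genes of this list rose and 0 to 7 fell, the fewest without young replicate 2 and the most without old control replicate 3. The 9 lists around the hepatokines held 24, 18, 18, 16, 14, 13, 10, 6 and 5 tested genes. Across these lists 31 genes passed with age and 0 with the knockout, against 22.8% and 0% of all genes. The count with age was 12 with only the groups compared, and it ran from 4 without young replicate 2 to 54 without old control replicate 3.

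**Figure D4:**
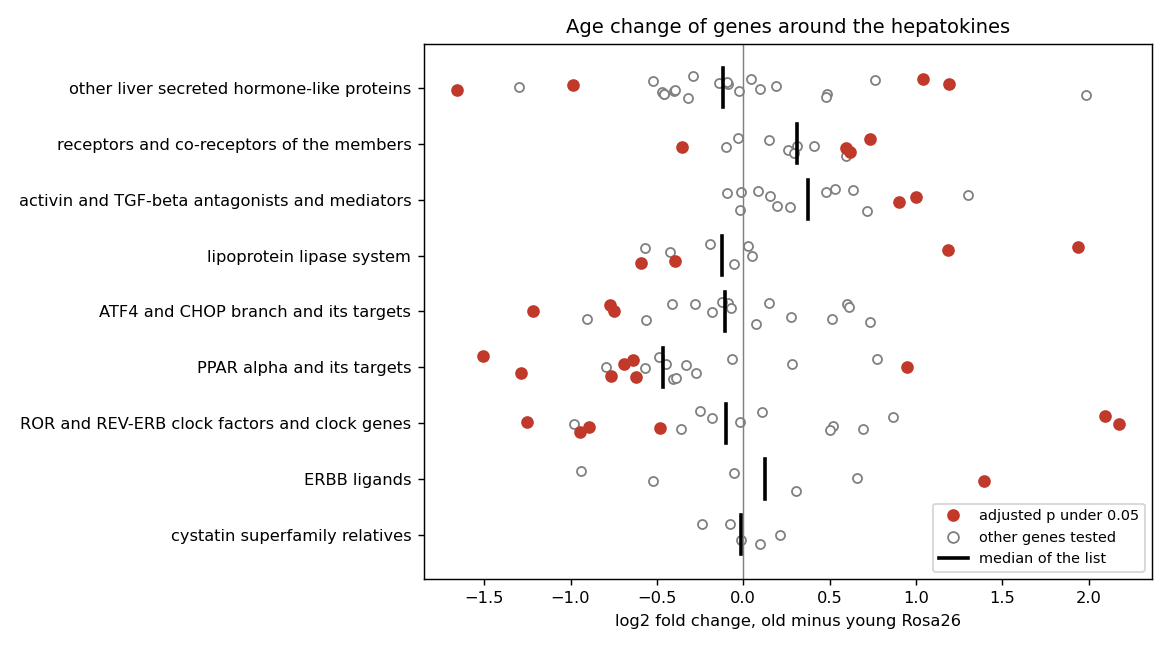
Log2 fold change of old against young controls (horizontal axis) for each tested gene of the 9 lists around the hepatokines (vertical axis), with filled red points for an adjusted p under 0.05 and a bar at each list's median. The PPAR alpha list has the lowest median, -0.465, and the activin and TGF-beta list the highest, 0.38.

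The genes with the most similar pattern over the 10 livers were found from log2 CPM scaled to mean 0 and SD 1, as the smallest root mean square difference. The nearest to Nrg4 were Med7 and Memo1, with differences of 0.162 and 0.167 against a median of 1.37 over all genes. The nearest to Enho were Dlgap1 and Atn1, at 0.427 and 0.461, the largest of these nearest differences among the 9 genes. For Angptl4 they were Slc27a2 (0.295) and Ndufv1 (0.297), for Inhbb Apom (0.399) and Scamp5 (0.403), and for Inhbe Gnat2 (0.323) and Tdrp (0.355). For Gdf15 they were Hes1 (0.347) and Slc13a2 (0.368), and for Fgf21 Malsu1 (0.245) and Gjc3 (0.248). For Ahsg they were Gm4788 (0.201) and C8b (0.224), and for Fetub Tifa (0.273) and Il1r1 (0.298). Among the 9 genes themselves the closest pair was Nrg4 and Angptl4 (0.427), followed by Fetub and Ahsg (0.582). These livers share groups, so the differences describe likeness and are not tested.

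Markers of several other cell types moved with age beside these genes, and those of some did not. Of all genes 14.1% rose and 8.66% fell with age. The marker sums are CPM by total counts, while the calls used TMM scaling. TMM scaling would raise the young sums beside those of the old livers. With age 9 of 10 macrophage, 7 of 9 endothelial and 6 of 10 stellate cell markers tested rose. So did 5 of 7 T and NK cell, 4 of 6 B and plasma cell and 4 of 5 granulocyte markers, and 3 of 9 hepatocyte markers fell. Of 6 erythroid and megakaryocyte markers tested 3 rose and 1 fell. Of 6 cholangiocyte markers 0 passed, with a median log2 fold change of 0.02, and of 2 adipocyte markers tested 0 passed. The macrophage markers summed to 207 to 284 CPM in young, 554 to 1870.4 in old control and 486 to 887 CPM in knockout livers, with none at 0 in any liver. The endothelial markers summed to 148 to 221, 345 to 453 and 265 to 340.1 CPM, and stellate cell markers to 207 to 352, 418 to 751 and 402 to 475 CPM. Granulocyte markers summed to 3.35 to 8.55, 14.2 to 333 and 8.39 to 24.7 CPM. Old control replicate 2 alone held the 333 CPM of granulocyte and the 1870.4 CPM of macrophage markers. Old control replicates 1 and 3 had 18.2 and 14.2 CPM of granulocyte and 554 and 927 CPM of macrophage markers. With the knockout 0 markers of any list passed, while the median log2 fold change was -1.03 for macrophage, -2.49 for granulocyte, -0.44 for endothelial and -0.38 for stellate cell markers, and the endothelial sums of knockout and old control livers did not overlap. The part of these cells in the age differences of Enho, Nrg4 and Angptl4 and in the knockout differences of Enho and Inhbb was not tested. In whole liver, fewer cells of a type and less RNA per cell cannot be told apart. Adipocyte markers summed to at most 19.9 CPM, with Adipoq at 0 in 7 of 10 livers, and pancreatic acinar markers to at most 0.217 CPM.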

How the data were processed

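Polyadenylated RNA of 10 whole livers was prepared with the Watchmaker mRNA kit and sequenced in paired reads on an Element AVITI, per the labels' protocols. The authors deposited raw counts per gene symbol, 1 column per liver. FastQC 0.11.8, Trim Galore 0.4.4, STAR 2.5.3a, HOMER and build mm10 are named in the submitters' processing notes with no role. The annotation and use of strand are not given in the sources used here.

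Counts were tested with edgeR 4.0.16 in R 4.3.3 (quasi-likelihood test, TMM factors, 1 coefficient per group over all livers, filterByExpr with a minimum count of 10 and total of 15), which left 13909 genes. P-values were adjusted by Benjamini-Hochberg over these genes, with a threshold of 0.05. The guide comparison used a fit with separate guides and its own filter (14153 genes). SE is the log2 fold change over the square root of F. Log2 CPM used a prior count of 2. Livers of each group differed by more than counting noise (chi-square per degree of freedom 21.7 or more). Positions and exon lengths are from GENCODE M21 (GRCm38). The test was run on simulated counts for 13909 genes before use.

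The members, lists and naming rule were chosen with earlier results of these data known. Named are the 9 genes, Cd44, up to 5 called genes per list, the 2 nearest genes per member and genes singled out as such. Alternatives were RLE factors, no filter, DESeq2 1.42.0, limma 3.58.1 voom, only the groups compared, separate guides and each liver left out. Some genes of the lists are not reported here by name.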

Additional observations from a re-analysis of the deposited data

Results flagged for a closer look

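In 2 of 20 values checked in the 4 knockout livers, 1 liver lay far from the other 3, and chance gives about 1 in 20. For Inhbb, knockout replicate 2 had 2.18 CPM against 1.60 to 1.69 CPM in the others, a gap of 0.843 of the whole range. These were 50 counts against 29, 34 and 29 in knockout replicates 1, 3 and 4, and the check took no account of counting error. For the erythroid and megakaryocyte markers, summed by total counts, the same liver had 1543 CPM against 670 to 794 CPM, a gap of 0.858 of the range.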

How the results depend on the processing

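Total-count scaling, the counts over the lists and the alternatives for secreted proteins were added after seeing the data. No paired analysis was possible because replicate numbers were assigned here and pair no animals. Over the 9 genes and their alternatives 407 values kept their call or stayed within 1 SD, 6 moved further, 9 passed in addition, 1 no longer passed and 9 of the tested genes' values changed sign, and 2 of those 407, both of Enho, changed sign within 1 SD. Genes called with age (3172) were 1192, and list members called (31) were 12, with only the groups compared. Leaving out each liver gave 396 to 5327 genes and 4 to 54 list members. With total-count scaling 4226 genes passed, 3872 of them higher, against 1967 of 3172. The knockout comparison gave 0 genes (916 at an unadjusted p under 0.05), 7 by DESeq2, 7 with guide 2 alone and 0 to 3 with each liver left out. Knockout against young gave 1614 genes (923 higher). It gave 2718 by DESeq2, 969 by limma voom, 3585 with total counts (3332 higher) and 4223 with only the groups compared, and 56 to 1652 with each liver left out. Its 20 list members were 36 by DESeq2, 42 with only the groups compared and 2 to 19 with each liver left out. The guide comparison gave 3 genes, 10 with no filter and 69 by DESeq2, where 1 list member passed. The causes were not tested.

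These values, none of them called, changed sign. Gdf15 with age was -0.064 without old control replicate 1 (up to 0.76 with another liver left out). With the knockout, Ahsg was 0.071 without old control replicate 3 (down to -0.48), and with guide 2 alone Fgf21 was -0.02 and Inhbe -0.14. Between knockout and young livers Fgf21 was 0.11 and Gdf15 0.0496 with total counts, and Fgf21 was 0.14 without young replicate 2 (down to -0.49). Between guides limma voom gave 0.0278 for Angptl4 and -0.0166 for Gdf15. Enho, which carried no test, was -0.0677 between knockout and young livers without young replicate 3 and 0.0896 between guides by limma voom.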

Other observations

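Among the 24 other hormone-like liver proteins, 0 passed between knockout and old control livers, and 4 had an unadjusted p under 0.05 in edgeR, as did 916 of all 13909 genes. These 4 were named after their values were seen, and each had adjusted p = 0.744 by edgeR. Serpinb1a, a protease inhibitor, stood at 21.2 ± 4.93 CPM in old controls (SD, n = 3), against 38.2 ± 8.98 CPM with the knockout (SD, n = 4), and its log2 fold change was 0.85 (SE 0.24). Tsku stood at 98.5 ± 21.4 CPM in old controls (SD, n = 3), against 182 ± 75.6 CPM with the knockout (SD, n = 4), and its log2 fold change was 0.89 (SE 0.30), or 0.56 without knockout replicate 4. Gdf2 stood at 21.5 ± 2.98 CPM in old controls (SD, n = 3), against 16.6 ± 1.01 CPM with the knockout (SD, n = 4), and its log2 fold change was -0.37 (SE 0.15). Igfbp1, which binds insulin-like growth factors, ran at 27.9, 19.0 and 95.8 CPM over old control replicates 1 to 3, against 6.57 to 35.5 CPM with the knockout. The change was -1.41 on the log2 scale (SE 0.58), and it was -0.38 without old control replicate 3.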
